A study of Mus musculus with 6 samples.

Results

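The cornified envelope genes other than the *Sprr* family were examined in corneal epithelial cells by bulk RNA-seq. They were the genes whose symbols begin with *Lce1*, *Lce3* or *Lce6*, together with a named list of envelope precursors, fused S100 proteins, secreted and corneodesmosomal proteins, scaffold proteins, crosslinking enzymes and processing proteases. Of 17784 genes listed, 37 met this rule, and 21 of these passed the filter for low counts and were tested. *Flg2*, *Tchhl1* and the alternative symbol *Loricrin* were not analysed here. The comparison was between 3 samples of *Prrx1-CreERT;Ptch1f/f* genotype, here called Ptch1Prrx1, and 3 samples of control *Ptch1f/f* mice. All mice were on a C57BL/6 background and both groups received tamoxifen. The labels give 3 doses, mice of 10 weeks and an interval of 2 months. *Prrx1-CreERT*, a recombinase induced by tamoxifen, is described by the study as active in keratocytes, corneal endothelium and other ocular mesenchymal cells, and the deletion of *Ptch1*, the receptor that restrains Hedgehog signaling, was thus directed at cells beneath the epithelium. The epithelium was separated from the cornea with EDTA. The study calls the samples biological replicates, but neither the labels nor the methods say whether a sample was 1 mouse or several, so the p values measure the spread between these samples.

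The cornified envelope is a protein shell that replaces the plasma membrane of dying keratinocytes in the skin. Transglutaminases crosslink precursors such as involucrin, loricrin and the late cornified envelope (Lce) proteins onto a scaffold of envoplakin and periplakin, while filaggrin and its relatives aggregate keratin filaments inside the cell. The corneal surface is a stratified epithelium that normally stays moist and does not cornify, and it is marked by keratin 12. The comparison addressed whether *Ptch1* ablation in the mesenchyme altered expression of this program in the overlying epithelium.

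Total expected counts ranged from 20296741 to 20625813 per sample, and the floor of 3 counts per library was equal to 0.145 to 0.148 CPM, which covers counting error only. *Ptch1* had 517, 659 and 682 normalized counts in control replicates 1, 2 and 3, and 390, 445 and 471 in Ptch1Prrx1 replicates 1, 2 and 3. It was lower in every Ptch1Prrx1 sample, with a log2 fold change of -0.51 (SE 0.13, edgeR adjusted p = 0.0401). Ptch1Prrx1 replicate 1 stood apart from replicates 2 and 3. Of the 304 genes called higher in Ptch1Prrx1, 250 had their highest value in replicate 1. Values of each sample are therefore given throughout. In bulk samples, a change in the number of cells of a type cannot be told apart from a change in RNA per cell.

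Among the cornified envelope genes, 10 of the 21 tested rose in Ptch1Prrx1 epithelium and 0 fell. Those that rose were *Cnfn*, *Dmkn*, *Crct1*, *Rptn*, *Lce3a*, *Flg*, *Lce3c*, *Sbsn*, *Cdsn* and *Ivl*, with fitted increases from 2.08-fold for *Ivl* to 33.5-fold for *Cnfn*. A gene was called when the quasi-likelihood test of edgeR gave it an adjusted p of at most 0.05 together with a 2-fold change or more. Among all 12999 tested genes, 2.34% were called higher and 0.892% were called lower. The median log2 fold change was 0.86 over the 21 tested members and -0.01 over all tested genes. The groups did not overlap, with every Ptch1Prrx1 sample above every control, for 14 tested members, and the same held for 19.7% of all tested genes. *Flg*, *Lce3c* and *Rptn* passed the filter only through their Ptch1Prrx1 values, while the other 18 tested members reached the filter level in every control sample. These 3 genes are counted in the 10 calls, in the 14 members without overlap and in the median. When at least 10 counts were required in every sample, they were not tested. In that fit 7 of 17 tested members were called higher, against 1.83% of all tested genes.

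The number of called members depended on which samples were included. It was 5 without control replicate 1, 1 without control replicate 2 and 5 without control replicate 3. It was 7 without Ptch1Prrx1 replicate 1, 8 without replicate 2 and 11 without replicate 3. *Cnfn* was the only member called in all 6 of these fits. The number of calls over all genes moved with it, from 420 to 59 without control replicate 2. Without Ptch1Prrx1 replicate 1, the called members were *Cnfn*, *Dmkn*, *Crct1*, *Rptn*, *Lce3a*, *Flg* and *Sbsn*, while *Cdsn*, *Lce3c* and *Ivl* were lost. No member was called lower in any of these fits.

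**Figure D1:**
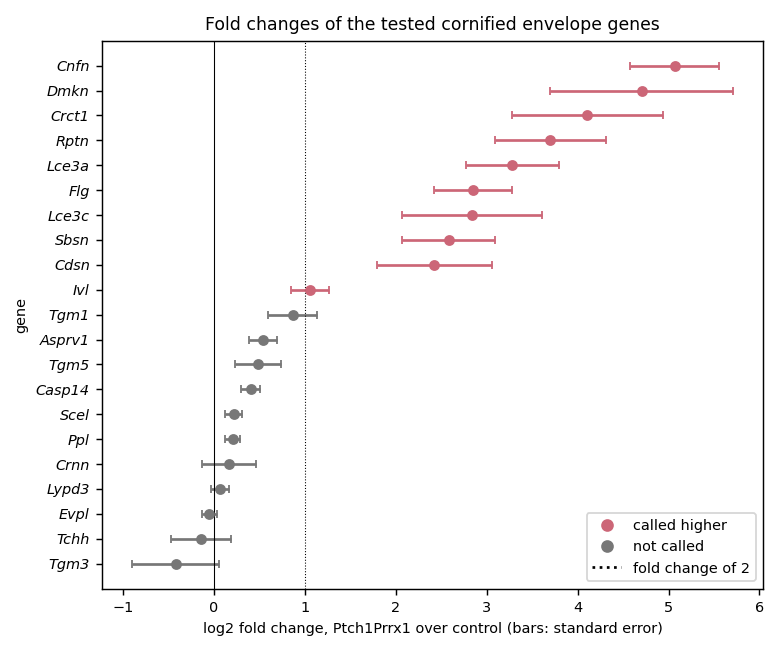
Log2 fold change (Ptch1Prrx1 over control, edgeR) of the 21 tested cornified envelope genes in descending order, with bars of 1 standard error and a dotted line at a fold change of 2. The 10 called genes lie to the right of the line, from *Ivl* at 1.06 to *Cnfn* at 5.07, and the genes not called lie between -0.42 (*Tgm3*) and 0.86 (*Tgm1*).

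The members fell into 2 groups by their level in control epithelium. Levels between genes were compared as TPM, which is scaled for transcript length. *Asprv1* was the most abundant member, with a mean of 4149 TPM in controls, followed by *Lypd3* at 1099, *Evpl* at 846, *Ppl* at 832 and *Scel* at 521 TPM. *Evpl* and *Ppl* overlapped, and the other neighbours in this order did not. *Tgm1* followed at 44.4 TPM, and from *Tgm5* at 18.0 TPM to *Lce3a* at 8.23 TPM each gene overlapped the next. All 10 members that rose lay in this lower range, from 14.2 TPM for *Cnfn* down to 0.0133 TPM for *Flg*. The 5 abundant genes made up 97.9% to 98.5% of the summed TPM of the 37 members in controls and 84.0% to 93.3% in Ptch1Prrx1.

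The other 32 members together had 171, 117 and 138 TPM in control replicates 1, 2 and 3, and 1871, 706 and 612 TPM in Ptch1Prrx1 replicates 1, 2 and 3. Their mean was 142 ± 26.9 TPM in controls and 1063 ± 701 TPM in Ptch1Prrx1 (SD, n = 3 samples each), a ratio of 7.48 that was not tested. *Cnfn* alone accounted for a mean of 9.89% of this sum in controls and 47.0% in Ptch1Prrx1.

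**Figure D2:**
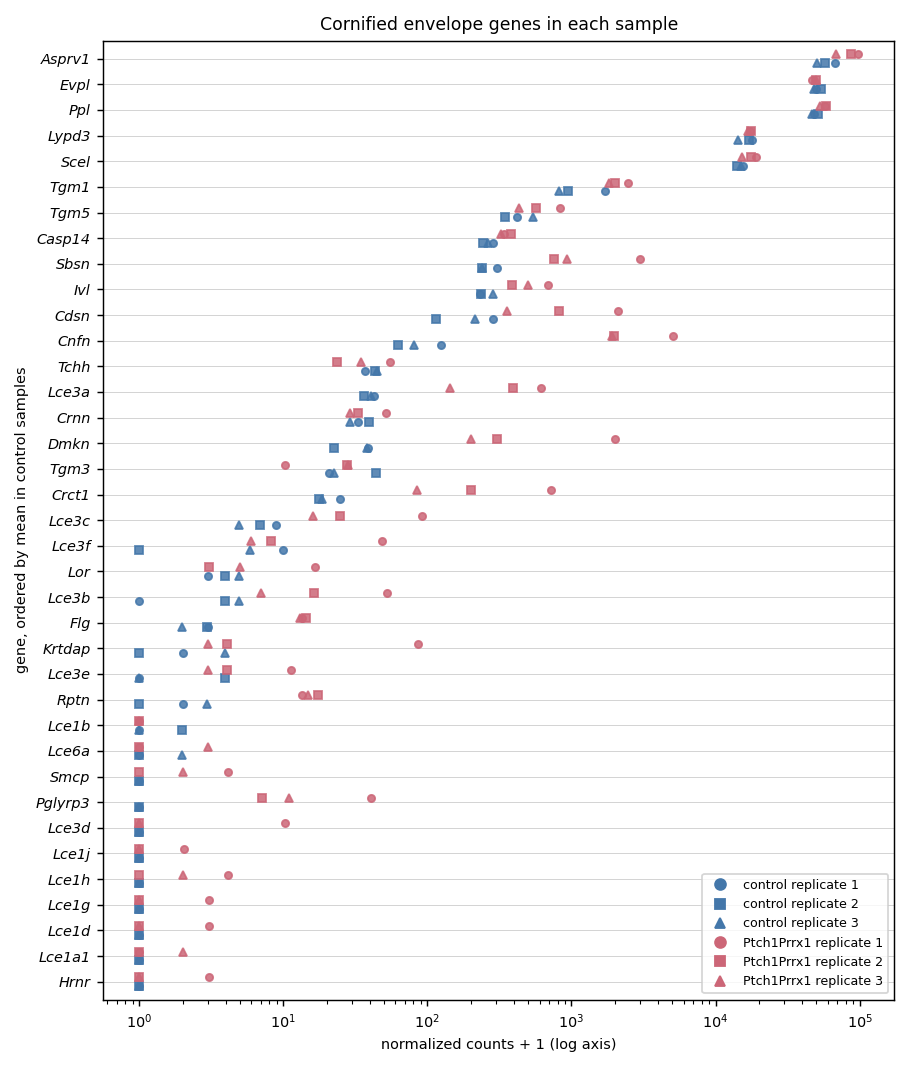
Normalized counts plus 1 (log axis) of the 37 cornified envelope genes, ordered by their mean in controls, with 1 point for each of the 3 control (blue) and 3 Ptch1Prrx1 (red) samples and a marker shape for each replicate number. Called genes such as *Cnfn*, with 61.9 to 124 normalized counts in controls and 1920 to 5034 in Ptch1Prrx1, separate completely, and Ptch1Prrx1 replicate 1 is the highest sample for 8 of the 10 called genes.

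Promoter sequences are shown for 7 called members, the 5 with an AP-1 match and 2 without. RefSeq windows (GRCm38.p6) from 250 bases before to 50 bases after the transcription start were found for 33 of the 37 members, including 9 of the 10 that rose, and *Crct1*, *Pglyrp3*, *Ppl* and *Evpl* had none. The AP-1 motif, the site of Fos and Jun proteins, was searched on both strands as TGANTCA, a loose form that allows any base at the centre. In the matches marked below, that base is C in *Ivl*, G in *Dmkn*, A in *Flg* and *Sbsn* and T in *Rptn*. Binding of Fos or Jun to these matches was not tested. The loose form was found in the windows of *Ivl*, *Flg*, *Rptn*, *Sbsn* and *Dmkn* among the 9 called members with a window, and in those of *Crnn*, *Krtdap*, *Lor* and *Scel* among the others. That made 9 of 33 members, or 27.3%, with a match in any of their windows, where 8.97% of all 27025 genes with a window had one and 7.81% of all 32851 windows held it. *Cnfn*, *Lce3a*, *Lce3c* and *Cdsn*, which all rose by more than *Ivl*, had no match. *Dmkn* has 3 windows, of which the first listed is shown. The 150 bases before the start are printed 5′ to 3′ on the gene's strand, with complete matches to TGANTCA in capitals.
Ivl, chr3:92573736-92573885, minus strand: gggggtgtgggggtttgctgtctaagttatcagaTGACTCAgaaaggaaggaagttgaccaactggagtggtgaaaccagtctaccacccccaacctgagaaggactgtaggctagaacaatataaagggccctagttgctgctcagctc
Flg, chr3:93273396-93273545, plus strand: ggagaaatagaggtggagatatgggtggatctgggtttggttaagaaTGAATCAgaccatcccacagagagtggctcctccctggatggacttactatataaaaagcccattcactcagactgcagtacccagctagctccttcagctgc
Rptn, chr3:93393549-93393698, plus strand: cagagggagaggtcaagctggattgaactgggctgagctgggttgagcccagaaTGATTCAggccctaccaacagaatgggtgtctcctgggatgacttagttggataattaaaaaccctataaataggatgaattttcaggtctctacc
Sbsn, chr7:30751321-30751470, plus strand: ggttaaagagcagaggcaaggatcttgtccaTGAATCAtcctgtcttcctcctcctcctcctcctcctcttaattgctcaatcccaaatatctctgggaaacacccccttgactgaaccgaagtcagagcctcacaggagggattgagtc
Dmkn, chr7:30763606-30763755, plus strand: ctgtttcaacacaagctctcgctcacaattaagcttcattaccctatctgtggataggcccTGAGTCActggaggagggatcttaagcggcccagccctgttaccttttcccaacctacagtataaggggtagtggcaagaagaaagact
Cnfn, chr7:25369725-25369874, minus strand: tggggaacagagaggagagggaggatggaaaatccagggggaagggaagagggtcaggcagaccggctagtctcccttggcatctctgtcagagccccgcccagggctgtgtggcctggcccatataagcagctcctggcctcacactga
Lce3a, chr3:92926231-92926380, minus strand: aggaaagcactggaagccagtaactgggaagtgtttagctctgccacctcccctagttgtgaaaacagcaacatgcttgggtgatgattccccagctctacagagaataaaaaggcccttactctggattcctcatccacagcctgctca
A further match in *Sbsn* spans the transcription start and is not marked. A match is a description of the sequence only.

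Other motifs were searched in the same windows on both strands. The TATA motif TATAAA was present for 11 members (33.3%) and for 15.7% of all genes with a window, and 3 of the 11 were called members, *Flg*, *Ivl* and *Rptn*. The KLF motif GGGTGTGG was present for *Casp14*, *Cnfn* and *Ivl*, and for 4.09% of all genes. The TEAD motif GGAATG was present for 4 members and 0 called members, and for 16.6% of all genes. The RUNX motif TGTGGT was present for 3 members and 0 called members (18.9% of all genes), and the E-box CACGTG for *Lce3a* alone (8.09%). The GRHL motif AACCGGTT and the C/EBP motif TTGCGCAA, which are rare at 0.174% and 0.207% of all genes, were present for 0 members.

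Of the genes grouped here as envelope precursors, the 3 that were tested, *Cnfn*, *Crct1* and *Ivl*, all rose. *Scel* and the *Lce* genes, which also encode envelope precursors, were grouped apart, and *Scel* was not called. *Cnfn*, which encodes cornifelin, a small envelope protein, had 124, 61.9 and 79.6 normalized counts in control replicates 1, 2 and 3, and 5034, 1962 and 1920 in Ptch1Prrx1 replicates 1, 2 and 3. The lowest Ptch1Prrx1 sample was far above the highest control. *Cnfn* had the largest log2 fold change of the tested members, 5.07 (standard error 0.49, 95% interval 3.93 to 6.20, edgeR adjusted p = 0.00436), and it lay from 4.46 to 5.39 when each sample was left out in turn. *Crct1*, a cysteine-rich protein gene of the epidermal differentiation complex, had 23.8, 16.7 and 17.5 in controls and 722, 200.1 and 83.6 in Ptch1Prrx1. Its groups did not overlap, but the Ptch1Prrx1 values were widely spread, and the fitted log2 difference was 4.11 (standard error 0.83, edgeR adjusted p = 0.0237). The call was lost without any 1 control replicate, with edgeR adjusted p values of 0.0692, 0.103 and 0.0703, and kept at a log2 fold change of 2.87 without Ptch1Prrx1 replicate 1.

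*Ivl*, the gene of involucrin, an early transglutaminase substrate that lines the membrane, rose the least. It had 232, 236 and 283 normalized counts in controls and 681, 383 and 499 in Ptch1Prrx1. Control samples were tightly grouped below all Ptch1Prrx1 samples, and *Ivl* rose by 1.06 on the log2 scale (standard error 0.21, edgeR adjusted p = 0.0212). This value lay just past the 2-fold threshold. Without Ptch1Prrx1 replicate 1 it was 0.82 and short of it, and without control replicate 1 or 2 the edgeR adjusted p was 0.066 and 0.097. *Lor*, the gene of loricrin, the main envelope protein of skin, was nearly silent, with 2, 3 and 4 counts in controls and 15, 2 and 4 counts in Ptch1Prrx1, and it was not tested.

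*Pglyrp3*, a secreted peptidoglycan recognition protein gene at the edge of the complex, had 0 counts in every control sample and 38, 6 and 10 counts in Ptch1Prrx1 replicates 1, 2 and 3. It was at least 6-fold higher, taking 3 counts per library as the control level, a bound that was 2.67-fold without Ptch1Prrx1 replicate 1. It did not pass the filter, and it was called when genes with at least 1 count in total were tested. *Smcp*, a sperm protein gene of the same region, had 0 counts in controls and 3, 0 and 1 in Ptch1Prrx1.

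Within the late cornified envelope family, *Lce3a* and *Lce3c*, the members that were tested, rose and the listed *Lce1* genes were close to silent. *Lce* genes encode small glycine- and cysteine-rich envelope proteins, and *LCE3* genes are known from wounded and psoriatic human skin. *Lce3a* had 41.7, 35.4 and 39.8 normalized counts in controls and 609, 392 and 141 in Ptch1Prrx1, without overlap. It rose by 3.28 on the log2 scale (standard error 0.51, edgeR adjusted p = 0.0125). The call held in each fit that left out a sample except that without control replicate 2, where the edgeR adjusted p was 0.0725. *Lce3c* was lower throughout, with 7.95, 5.90 and 3.88 in controls and 91.0, 23.6 and 14.9 in Ptch1Prrx1. It was called at a log2 fold change of 2.84 (standard error 0.77, edgeR adjusted p = 0.0491), just inside the threshold. The call was lost in each fit that left out a sample other than Ptch1Prrx1 replicate 3, with edgeR adjusted p values from 0.0595 to 0.157, and the log2 fold change was 1.69 without Ptch1Prrx1 replicate 1.

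The other 4 listed *Lce3* genes were too low to be tested. *Lce3b* had 0, 3.12 and 4.40 expected counts in controls and 49.89, 14.52 and 5.60 in Ptch1Prrx1, so that its groups did not overlap. *Lce3f* had 9.49, 0 and 4.65 in controls and 46.11, 6.77 and 5.15 in Ptch1Prrx1, and its groups overlapped. *Lce3e* reached 10.06 and *Lce3d* 9.03 expected counts in Ptch1Prrx1 replicate 1, and both were at most 2.80 in every other sample. The 6 *Lce3* genes summed to 58.6, 47.2 and 52.4 normalized counts in controls and to 819, 441 and 169 in Ptch1Prrx1. The mean of this sum was 52.7 ± 5.72 in controls and 476 ± 326 in Ptch1Prrx1 (SD, n = 3 samples each), a ratio of 9.03 that was not tested.

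The sum is less affected than its parts by how reads were divided between copies. In GENCODE M21 transcripts, 12.1% (*Lce3b*) to 49.3% (*Lce3d*) of 50-base windows of each *Lce3* gene were also found in other *Lce3* genes and in no gene outside the family. The share was 19% for *Lce3a* and 35.7% for *Lce3c*, so the split of reads between them is uncertain. The 6 *Lce1* genes listed (*Lce1a1*, *Lce1b*, *Lce1d*, *Lce1g*, *Lce1h* and *Lce1j*), of a family strongly expressed in cornified skin, summed to 0, 0.983 and 0 normalized counts in controls and to 8.27, 0 and 1.99 in Ptch1Prrx1. From 17.8% (*Lce1g*) to 25.4% (*Lce1d*) of the 50-base windows of these *Lce1* genes were shared with other genes. *Lce1a2*, *Lce1c*, *Lce1e*, *Lce1f*, *Lce1i*, *Lce1k*, *Lce1l* and *Lce1m* were not among the genes listed, so their levels are not known. *Lce6a* had 0, 0 and 1 counts in controls and 0, 0 and 2 in Ptch1Prrx1.

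Among the fused S100 genes, which encode large repetitive proteins that bind keratin filaments or the envelope, *Flg* and *Rptn* rose from very low levels. *Flg*, the gene of profilaggrin, had 1.99, 1.97 and 0.971 normalized counts in controls and 12.4, 13.3 and 11.9 in Ptch1Prrx1. These were 5 reads in the 3 control libraries and 37 in the 3 Ptch1Prrx1 libraries, a ratio of 7.67 with a counting interval of 3.01 to 25.0. *Rptn*, the gene of repetin, had 0.994, 0 and 1.94 in controls and 12.4, 16.4 and 13.9 in Ptch1Prrx1. Its 3 and 42 reads gave a ratio of 14.5 with a counting interval of 4.64 to 73.2.

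For both genes the 3 Ptch1Prrx1 samples lay close together, and replicate 2 was the highest. They were the only called members not highest in replicate 1. The edgeR adjusted p was 0.0118 for *Flg* and 0.0141 for *Rptn*, and both calls were lost only without control replicate 2, with edgeR adjusted p values of 0.0676 and 0.065. *Crnn*, the gene of cornulin, had 28.1 to 38.3 normalized counts in controls and 27.9 to 50.7 in Ptch1Prrx1. *Tchh*, the gene of trichohyalin of hair follicles, had 35.8 to 43.7 in controls and 22.6 to 53.8 in Ptch1Prrx1. The groups of *Crnn* and *Tchh* overlapped, with log2 differences of 0.17 (standard error 0.29) and -0.14 (standard error 0.33) whose signs turned when Ptch1Prrx1 replicate 1 (-0.13, *Crnn*) or Ptch1Prrx1 replicate 2 (0.11, *Tchh*) was left out. *Hrnr*, the gene of hornerin, had 2 counts in Ptch1Prrx1 replicate 1 and 0 in every other sample.

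Secreted and corneodesmosomal proteins accounted for 3 further called genes, *Dmkn*, *Sbsn* and *Cdsn*. *Dmkn*, the gene of the secreted protein dermokine, had 37.8, 21.6 and 36.9 normalized counts in controls and 2016, 305 and 198 in Ptch1Prrx1. The groups did not overlap, although replicate 1 was far above the other Ptch1Prrx1 samples. *Dmkn* rose by 4.70 on the log2 scale (standard error 1.00, edgeR adjusted p = 0.0266), and by 2.97 without that replicate, where the call was kept. Without any 1 control replicate the call was lost, with edgeR adjusted p values from 0.074 to 0.114. *Sbsn*, the gene of suprabasin, a secreted protein of suprabasal keratinocytes, had 304, 239.9 and 238 in controls and 2980, 759 and 937 in Ptch1Prrx1. The controls lay within a narrow range below all Ptch1Prrx1 samples, and the increase was 2.58 on the log2 scale (standard error 0.51, edgeR adjusted p = 0.0231). Its call was likewise lost without any 1 control replicate (edgeR adjusted p from 0.0629 to 0.101), and the log2 fold change was 1.71 without Ptch1Prrx1 replicate 1.

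*Cdsn*, the gene of corneodesmosin, an adhesive protein of the junctions between cornified cells, had 283, 113 and 212 normalized counts in controls and 2087, 816 and 353 in Ptch1Prrx1. The increase was 2.42 on the log2 scale (standard error 0.63, edgeR adjusted p = 0.0453). The groups did not overlap, but Ptch1Prrx1 replicate 3 lay close to the highest control. Without Ptch1Prrx1 replicate 1 the log2 fold change was 1.53 and the edgeR adjusted p 0.0658, and the call was also lost without any other sample except Ptch1Prrx1 replicate 3, with the edgeR adjusted p reaching 0.155. *Krtdap*, a secreted protein gene of differentiating keratinocytes, was not tested. It had 1, 0 and 3 counts in controls and 82, 3 and 2 counts in Ptch1Prrx1, so its increase rested on replicate 1. *Lypd3*, a membrane-anchored protein gene of the urokinase receptor family, was abundant in all samples. It had 17982, 16987 and 14290 normalized counts in controls and 17367, 17567 and 16681 in Ptch1Prrx1. Its log2 fold change was 0.07, with a 95% interval of -0.15 to 0.29, and it was -0.03 without control replicate 3.

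The abundant scaffold genes were not called. *Ppl*, the gene of periplakin, had 48343, 51426 and 46856 normalized counts in controls and 57692, 58692 and 52845 in Ptch1Prrx1. Every Ptch1Prrx1 sample was above every control, and the log2 fold change was 0.21 with a 95% interval of 0.02 to 0.40 (edgeR adjusted p = 0.123). *Evpl*, the gene of envoplakin, the partner of periplakin, had a log2 fold change of -0.05 with a 95% interval of -0.24 to 0.14, and its groups overlapped. *Scel*, the gene of the envelope precursor sciellin, had 0.22 as its log2 difference (standard error 0.10, edgeR adjusted p = 0.16) and overlapping groups. For *Ppl*, *Evpl* and *Scel* the intervals did not reach the 2-fold change required for a call.

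None of the 3 transglutaminase genes was called. *Tgm1*, which encodes the membrane-bound crosslinking enzyme of keratinocytes, had 1703, 938 and 817 normalized counts in controls and 2471, 2008 and 1814 in Ptch1Prrx1. All Ptch1Prrx1 samples were above all controls, though replicate 3 exceeded control replicate 1 by little. Its log2 fold change was 0.86 with a 95% interval of 0.24 to 1.49 (edgeR adjusted p = 0.0682), and without control replicate 1 it was called at 1.26 (edgeR adjusted p = 0.0199). *Tgm5* had 419, 345 and 539 in controls and 828, 562 and 428 in Ptch1Prrx1, with overlap and a log2 fold change of 0.48 (95% interval -0.11 to 1.07). *Tgm3*, the transglutaminase of hair follicles and upper epidermis, was low, with 19.9, 43.3 and 21.4 in controls and 9.30, 26.7 and 26.9 in Ptch1Prrx1. Its log2 fold change was -0.42 (95% interval -1.53 to 0.69), and it was 0.02 without control replicate 2.

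The proteases that act on profilaggrin were also not called, but both were higher in every Ptch1Prrx1 sample. *Asprv1*, the gene of the skin aspartic protease, had 67211, 57571 and 50463 normalized counts in controls and 98211, 87195 and 68809 in Ptch1Prrx1. Its log2 fold change was 0.54 with a 95% interval of 0.17 to 0.90 (edgeR adjusted p = 0.0587). *Casp14*, the gene of the caspase of terminally differentiating keratinocytes, had 282, 243 and 262 in controls and 339, 380 and 324 in Ptch1Prrx1. It passed the adjusted p (edgeR, 0.0419) but not the fold change, with a log2 fold change of 0.40 (95% interval 0.17 to 0.64).

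Of the 10 called members, 6 lay in the epidermal differentiation complex, the cluster of envelope genes on chromosome 3. *Flg*, *Lce3c* and *Rptn* are among these 6 and passed the filter only through their Ptch1Prrx1 values, and of the other 7 called members 3 lay in the complex. In the RefSeq gene order (GRCm38.p6), the interval from *Pglyrp3* to *Tchh* held 51 protein-coding genes, of which 40 were listed. There were 23 members inside it, of which 8 were tested, 6 rose and 0 fell. The median log2 fold change over the tested genes was 2.85. It was set by *Lce3c* (2.84) and *Flg* (2.85), and thus by genes that passed the filter only through their Ptch1Prrx1 values. Apart from *Flg*, *Lce3c* and *Rptn*, the tested members inside it were *Tchh* (-0.14), *Crnn* (0.17), *Ivl* (1.06), *Lce3a* (3.28) and *Crct1* (4.11). Of the 14 members elsewhere, 13 were tested and 4 rose, namely *Cdsn* on chromosome 17 and *Cnfn*, *Dmkn* and *Sbsn* on chromosome 7, with a median of 0.48. The other 17 listed genes of the interval included 4 that were tested, *Sprr1b*, *Sprr3*, *Sprr1a* and *Kprp*, and all 4 rose. *Sprr3* and *Sprr1b* had 1 and 10 counts over the 3 control libraries together, and they too passed the filter only through their Ptch1Prrx1 values. Over all tested genes, 2.34% were called higher.

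Along this order, *Lce3a* to *Lce3f* and *Crct1* are consecutive, and the summed expected counts of the 3 Ptch1Prrx1 libraries exceeded those of the 3 control libraries for each of these 7 genes. *Flg* and *Rptn* lay in the block of fused S100 genes, separated by *Hrnr*, which was at most 2 counts in any sample. The groups of *Crnn* and *Tchh*, which belong to the same block, overlapped. Between *Ivl* and *Lce3a*, the listed *Lce1* genes and *Lce6a* were at most 3.01 expected counts in any sample. On chromosome 7, *Sbsn*, *Dmkn* and *Krtdap* are adjacent genes, and all 3 had their highest value in Ptch1Prrx1 replicate 1. The same held for 82.24% of all genes called higher.

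**Figure D3:**
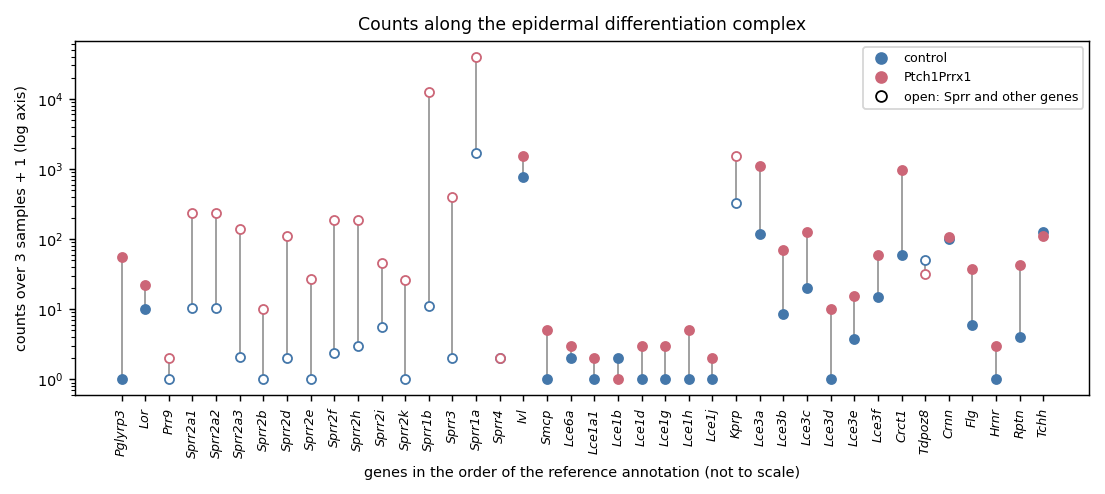
Expected counts summed over the 3 control (blue) and the 3 Ptch1Prrx1 (red) libraries plus 1 (log axis) for the listed genes of the epidermal differentiation complex in RefSeq order, not to scale, with filled points for the cornified envelope genes and open points for *Sprr* and other genes. *Lce3a* (118.73 against 1111.98 counts), its *Lce3* neighbours, *Crct1* and *Ivl* are higher in Ptch1Prrx1, and the *Lce1* genes between *Ivl* and *Lce3a* are near 0 in both groups.

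*Sbsn* and *Dmkn* also differed in the effective length that RSEM assigned to them, which is the average usable length of a gene's transcripts weighted by their estimated abundance. It was read off from the deposited counts and FPKM for 10904 genes with at least 20 counts in every sample and a mean FPKM of at least 1. For *Sbsn* it was 2572, 3368 and 2448 bases in controls and 1206, 1511 and 1574 bases in Ptch1Prrx1. For *Dmkn* it was 1163, 1924 and 1246 bases in controls and 716, 824 and 910 bases in Ptch1Prrx1. The groups did not overlap for either gene. The ratios of the group means, 0.512 and 0.565, were the lowest and the next lowest of all 10904 genes, whose 1st and 99th percentiles were 0.931 and 1.06. The other 12 members compared had ratios from 0.968 to 1.01. This pattern was noticed after the values were seen and was not tested.

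The length changes the size of the increase with the scale used. The ratio of mean TPM was 11.9 for *Sbsn* and 43.7 for *Dmkn*, where the ratio of mean normalized counts was 5.98 and 26.2. GENCODE M21 lists 4 coding transcripts of *Sbsn* from 432 to 2221 bases and 6 of *Dmkn* from 662 to 2063 bases. The control lengths of *Sbsn* exceeded the longest of these, so the annotation used in quantification held a transcript longer than these coding transcripts. Non-coding transcripts of *Sbsn* in GENCODE M21 were not compared. In GENCODE M21, 11.9% of the 50-base windows of *Sbsn* were shared with *Tmem147os*, which overlaps it, and the sources do not say whether counting used strand. The part of such shared reads in the values of *Sbsn* was not tested.

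**Figure D4:**
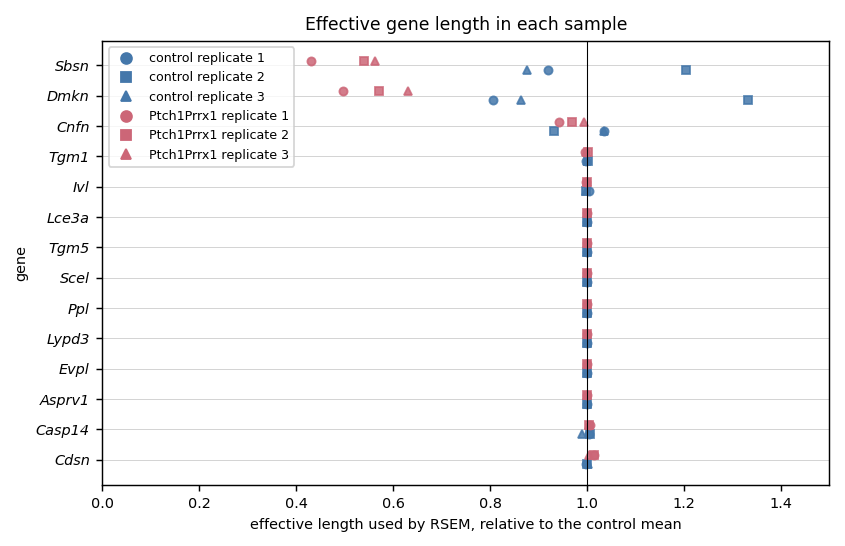
Effective length of the 14 members compared, divided by each gene's mean in controls, with 1 point for each of the 3 control (blue) and 3 Ptch1Prrx1 (red) samples. *Sbsn* (mean ratio 0.512) and *Dmkn* (0.565) lie well below 1 in every Ptch1Prrx1 sample, and the mean ratios of the other 12 members lie from 0.968 to 1.01.

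Transcription factors that govern cornification were called in both directions. Of 34 such genes listed, 32 were tested, 3 rose and 1 fell, with a median log2 fold change of 0.07, where 2.34% of all tested genes were called higher and 0.892% lower. Those that rose were *Maf* (log2 fold change 2.43, edgeR adjusted p = 0.0317), a factor of late keratinocyte differentiation, *Barx2* (2.28, edgeR adjusted p = 0.0188) and *Ets1* (1.16, edgeR adjusted p = 0.043). *Maf* was low, with 3.93 to 14.6 normalized counts in controls and 27.7 to 67.2 in Ptch1Prrx1, and was below the filter level in control replicates 1 and 2. *Dlx3*, a homeobox factor of suprabasal keratinocytes, fell by 1.11 on the log2 scale (edgeR adjusted p = 0.0355), from 279 to 474 normalized counts in controls to 128 to 233 in Ptch1Prrx1. Without control replicate 2, 0 genes of this list were called, without control replicate 1 or 3 the number was 2, and without Ptch1Prrx1 replicate 1 or 3 it was 1 and 2.

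Enzymes and inhibitors that process envelope and filaggrin precursors moved in both directions. Of 38 names, 34 were listed in the file and 26 tested, and 4 rose and 2 fell, with a median log2 fold change of 0.12, against the same shares of 2.34% and 0.892% over all tested genes. *Klk7*, a kallikrein that cleaves corneodesmosomes, had 4.97, 1.97 and 1.94 normalized counts in controls and 91.0, 32.8 and 25.9 in Ptch1Prrx1, a log2 fold change of 4.02 (edgeR adjusted p = 0.0153). It passed the filter only through its Ptch1Prrx1 values. *Serpinb2*, a serpin of the differentiating epidermis, rose by 3.94 (edgeR adjusted p = 0.0214), and *Klk8* by 1.58 (edgeR adjusted p = 0.0192) on the log2 scale. The other gene that rose was *Stfa3*, a stefin. *Cst6*, the gene of the protease inhibitor cystatin M/E, fell by 1.01 (edgeR adjusted p = 0.00808) and *Dnase1l2*, which degrades DNA in cornifying cells, fell by 1.22 (edgeR adjusted p = 0.0107). Left-out samples moved the number of called genes from 6 to 0 (control replicate 2), 2 (control replicate 1), 3 (control replicate 3) and 4 (Ptch1Prrx1 replicate 1).

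*Krt12*, *Krt1* and *Krt10* were not called, while *Krt14* was called higher. *Krt12*, the keratin of corneal epithelium, had 48270, 48396 and 44025 TPM in controls and 37107, 49487 and 41137 TPM in Ptch1Prrx1 (log2 fold change -0.10, edgeR adjusted p = 0.645). The 14 corneal epithelial markers summed to 110880 to 118759 TPM in controls and 101230 to 120859 TPM in Ptch1Prrx1. Of these, 2 rose (*Krt14* and *Clu*), where 2.34% of all tested genes were called higher. *Krt14* had 534, 535 and 644 TPM in controls and 5798, 3254 and 2420 TPM in Ptch1Prrx1 (log2 fold change 2.81, edgeR adjusted p = 0.00769). *Krt1*, the suprabasal keratin of epidermis, was at 4.55, 5.30 and 5.05 TPM in controls and at 2.58, 3.05 and 3.68 TPM in Ptch1Prrx1. It passed the adjusted p (edgeR, 0.0401) but not the fold change, with a log2 fold change of -0.64 and every Ptch1Prrx1 sample below every control. *Krt10*, its partner, was at 6.54, 9.88 and 7.88 TPM in controls and at 11.6, 7.72 and 8.47 TPM in Ptch1Prrx1. *Krt2* was at most 0.14 TPM in any sample. Of 15 epidermal markers, 13 were tested, and 3 rose (*Elovl4*, *Kprp* and *Alox12b*) and 0 were called lower. Over all tested genes, 2.34% were called higher and 0.892% lower. *Krt78* passed the adjusted p (edgeR, 0.0319) but not the fold change, with a log2 fold change of -0.60 and every Ptch1Prrx1 sample below every control. The list summed to 11048 to 12150 TPM in controls and 9172 to 10801 TPM in Ptch1Prrx1. Most of this sum was *Calml3* (6862 to 7311 TPM in controls, 6268 to 6591 in Ptch1Prrx1) and *Slurp1* (2910 to 4468 and 2012 to 3461 TPM). Neither was called, and the sum says little about the other genes of the list.

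Some marker lists of other cell types were highest in the same library as most called members. Hair follicle and sebaceous markers (14 names, 11 listed, 3 tested) summed to 18.7 to 28.6 TPM in controls and 63.2 to 293 TPM in Ptch1Prrx1, with 293 in replicate 1. *Krt17* was the called gene among them. It alone made up most of each sum, with 15.67 to 24.85 TPM in controls and 59.52 to 286.88 TPM in Ptch1Prrx1. Conjunctival markers (14 names, 12 listed, 8 tested, 0 called) summed to 1434 to 2384 TPM in controls and 2222 to 4770 TPM in Ptch1Prrx1, with 4770 in replicate 1. Most of that value was *Krt13* (3182 TPM), *Krt4* (898 TPM) and *Krt19* (587 TPM). In controls these were at 1193 to 1877, 105 to 223 and 85.6 to 209 TPM. *Krt7* was also highest in replicate 1, while *Krt8* was lower in every Ptch1Prrx1 sample than in every control. Of the goblet cell genes, *Muc5b*, *Tff1*, *Spdef* and *Foxa3* were at most 0.38 TPM, *Clca1* at most 1.10 TPM and *Agr2* from 5.81 to 14.4 TPM in any sample. Immune markers (15 names, 8 tested, 0 called) summed to 145 to 186 TPM in controls and 163 to 599 TPM in Ptch1Prrx1. The value of 599 was in replicate 1, where *S100a9* alone was at 373 TPM. *Ptprc*, the general leukocyte gene, was at most 0.2 TPM in any sample, whereas *Cd68* was from 45.3 to 65.5 TPM and *Cd74* from 4.24 to 14.1 TPM. *Itgam* was from 67.0 to 101 TPM in controls and from 99.5 to 129 TPM in Ptch1Prrx1. Stromal markers (15 names, 14 listed, 8 tested, *Thbs2* called higher) summed to 11.6 to 67.7 TPM in controls and 11.5 to 16.0 TPM in Ptch1Prrx1, and the 67.7 was in control replicate 3. *Col1a2* was at 26.0 TPM and *Vim* at 20.8 TPM in that sample, *Pdgfra* was from 3.26 to 6.91 TPM in all samples, and *Kera*, the keratocyte gene, was at most 0.07 TPM. Of 20 immediate early genes, 12 rose, where 2.34% of all tested genes did. *Btg2*, *Nr4a1*, *Jun*, *Zfp36* and *Dusp1* had the smallest p values among them. The 12 include *Egr2* (5, 3 and 3 counts in controls) and *Egr3* (2, 0 and 0), which passed the filter only through their Ptch1Prrx1 values. The list summed to 2620 to 3021 TPM in controls and 4797 to 5605 TPM in Ptch1Prrx1, without overlap. The part of these genes in the results on the envelope genes was not tested.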

How the data were processed

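Bulk RNA-seq of corneal epithelial cells was deposited for 3 control and 3 Ptch1Prrx1 samples, grouped by the sample titles. Per the submitters' processing notes, reads were aligned with Bowtie2 2.2.5 and quantified with RSEM 1.2.12 on build mm9, and the strand setting is not given in the sources used here. The authors deposited expected counts, estimated per gene with reads of similar genes divided between them. They also deposited TPM, used here for levels between genes, and FPKM, used here only for effective lengths. Of the expected counts above 0, 39.4% were not whole, and they were rounded. Columns of other samples were used in 0 cases.

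edgeR 4.0.16 (R 4.3.3) was run with TMM factors, filterByExpr and the quasi-likelihood test, with Benjamini-Hochberg adjustment over all 12999 tested genes, and was tested on simulated data. The thresholds (adjusted p 0.05, 2-fold change) follow the study's methods, whose text names no test. With 3 samples in each group, the smallest p of an exact permutation test is 0.1. Fold changes compare Ptch1Prrx1 with control, and normalized counts are scaled for depth and TMM factor. Intervals of log2 fold changes are 95% intervals from the fit, and counting intervals of summed counts are exact 95% intervals that cover counting error only. The members and lists were chosen with earlier results of these data known. Every member is named; of the other lists, called genes were named up to the 5 with the smallest p, with *Krt12*, *Krt1*, *Krt10* and *Ptch1* whatever their values. *Stfa3*, *Krt2*, *Krt78*, *Calml3*, *Slurp1*, *Egr2*, *Egr3*, the *Sprr* genes and the conjunctival, immune and stromal markers other than *Thbs2* were named outside this rule, after their values were seen. Promoter windows, gene order and transcripts came from RefSeq GRCm38.p6 and GENCODE M21, a later build than mm9, and no coordinates were carried between builds. Alternatives were DESeq2 1.42.0, limma 3.58.1 (voom and log2 TPM with a pseudocount of 1 or 0.1), other normalization factors, filters and thresholds, a replicate block and each sample left out in turn.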

Additional observations from a re-analysis of the deposited data

How the results depend on the processing

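No alternative called a member lower. The 10 called members were the same 10 with DESeq2, RLE factors and upper-quartile factors, and genes with at least 1 count in total gave 11. Limma-voom called 5, a minimum of 10 counts in every sample 7 (*Flg*, *Lce3c* and *Rptn* were then not tested), and log2(TPM + 1) with a mean TPM of at least 1 called 5, with 2 regulators and 234 genes in all. With a pseudocount of 0.1, 6 members and 2 regulators were called. Without a filter, log2(TPM + 1) called 3 members, 1 regulator, 3 processing genes and 168 genes in all. Limma-voom called 4 processing genes. With no minimum fold change, 11 members, 9 regulators, 10 processing genes and 1822 genes were called. The causes were not tested.

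With each sample left out in turn, the number of members called ranged from 1 to 11, of regulators from 0 to 3, of processing genes from 0 to 8 and of all genes from 59 to 430. Each of these fits has fewer samples. Signs turned for *Tgm3* (from -0.64 to 0.023), *Lypd3* (-0.025 to 0.14), *Crnn* (-0.13 to 0.33) and *Tchh* (-0.52 to 0.11), none of them called. Of 345 recomputed member values, 297 kept direction and side of the threshold, 42 lost and 2 gained it, and 4 turned sign.

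The correlations of same-numbered deviations were 0.11, -0.01 and 0.02, and those of differently numbered ones lay from -0.18 to 0.18. Same-numbered samples were thus not more alike than others by this measure. With 3 samples in each group, it cannot show whether the replicate numbers pair the samples. A replicate block gave the same 10 members, 4 regulators, 6 processing genes and 390 genes in all. The 16 untested members had too few counts to pass the filter.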
